A study of Mus musculus with 15 samples.

Results

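The genes described here encode proteins that muscle cells make when they stop dividing, fuse and build contractile fibres. The list has 35 symbols, and each was found once among the 46078 genes of the batch 1 count table. Of the 35, 24 were also among the 13063 named genes of the batch 2 count table. The other 11, Mymx, Myh8, Tnnt1, Tnnt3, Tnni2, Tnnc2, Ckm, Casq2, Mybph, Lmod3 and Smpx, were not in that table, whose lines each summed to 101 counts or more over 9 libraries. In batch 1 these 11 genes had between 2 and 149 counts over all 6 libraries. The cells were satellite cells, the stem cells of skeletal muscle, from mouse hindlimb, grown in F10 medium with 10% horse serum. Batch 1 had cells given 0.05 mM adenosine and cells given DMSO, the vehicle. Batch 2 had 0.1 mM adenosine, 0.25 mM adenosine monophosphate (AMP, the nucleoside with a phosphate group) and DMSO, on cells whose labels name C57BL/6J mice. Treatment lasted 24 hours, and each of the 5 groups had 3 libraries made by Smart-seq2 and Tn5. Nothing in the labels tells whether a group's libraries are independent animals or cultures, and the p-values therefore cover library-to-library spread that could be technical.

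Satellite cells that leave the cell cycle switch on Myog and then the genes of the contractile apparatus, under the control of MyoD-family and MEF2 transcription factors. Mononucleated cells fuse through the membrane proteins of Mymk and Mymx. The sarcomere is then assembled from thin filaments of actin, nebulin, tropomyosin and troponin and thick filaments of myosin, with titin running from the Z-disc to the M-band, where myomesin, encoded by Myom1, crosslinks myosin. The muscle acetylcholine receptor, desmin filaments and the calcium-handling membranes belong to the same programme, although Des and Chrna1 are already transcribed in dividing myoblasts.

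Depth ran from 14683346 to 20799588 counts a library in batch 1 and from 11107450 to 14201933 in batch 2. All 7 satellite cell markers examined (Pax7, Myf5, Myod1, Vcam1, Itga7, Cdh15 and Ncam1) had a mean of 1 CPM (counts-per-million, relative to the library total) or more in every group. Markers of adult fibres were low. In batch 1 the 8 genes of that list summed to 2.84 to 9.40 CPM with adenosine and 8.94 to 32.5 CPM with DMSO. Of these, Actn3 reached a mean of 1 CPM with adenosine, and Actn3 and Casq1 with DMSO. Myh2, Myh4 and Myh7 had no count in the DMSO libraries, which at 3 counts a library allows up to 0.144 to 0.199 CPM.

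To show the sequence in front of members that moved, the promoters of 4 matched members called in the most comparisons are given, with ties settled by mean CPM. They are taken from RefSeq on GRCm38.p6, where 26 of the 35 symbols had an entry. Each runs from 250 bases before to 50 bases after the transcription start, 5′ to 3′ on the gene's strand. Capitals mark every E-box (CANNTG, the core bound by MyoD-family factors), MEF2 motif and CArG box, each searched on both strands. The windows are chr1:75360042-75360341 (plus strand) for Des, chr2:73580289-73580588 (minus strand) for Chrna1, chr2:76982498-76982797 (minus strand) for Ttn and chr17:71019307-71019606 (plus strand) for Myom1. The promoters read:
Des: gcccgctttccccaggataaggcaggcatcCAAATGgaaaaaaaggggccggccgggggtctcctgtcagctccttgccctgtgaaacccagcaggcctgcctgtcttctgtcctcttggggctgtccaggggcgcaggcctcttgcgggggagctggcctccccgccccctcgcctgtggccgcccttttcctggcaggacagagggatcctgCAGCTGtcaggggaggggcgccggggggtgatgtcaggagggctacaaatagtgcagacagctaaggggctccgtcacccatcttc
Chrna1: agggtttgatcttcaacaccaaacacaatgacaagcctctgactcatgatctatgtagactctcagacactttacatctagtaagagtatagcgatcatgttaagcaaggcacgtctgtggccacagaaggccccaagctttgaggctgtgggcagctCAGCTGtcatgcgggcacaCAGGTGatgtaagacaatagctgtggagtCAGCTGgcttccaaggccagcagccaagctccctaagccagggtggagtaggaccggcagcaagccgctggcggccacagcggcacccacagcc
Ttn: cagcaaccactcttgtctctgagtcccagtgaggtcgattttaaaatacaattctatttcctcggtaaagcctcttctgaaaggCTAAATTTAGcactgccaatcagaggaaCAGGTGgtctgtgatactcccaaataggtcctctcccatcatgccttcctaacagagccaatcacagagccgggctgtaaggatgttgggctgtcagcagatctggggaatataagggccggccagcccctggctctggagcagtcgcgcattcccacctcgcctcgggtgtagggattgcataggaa
Myom1: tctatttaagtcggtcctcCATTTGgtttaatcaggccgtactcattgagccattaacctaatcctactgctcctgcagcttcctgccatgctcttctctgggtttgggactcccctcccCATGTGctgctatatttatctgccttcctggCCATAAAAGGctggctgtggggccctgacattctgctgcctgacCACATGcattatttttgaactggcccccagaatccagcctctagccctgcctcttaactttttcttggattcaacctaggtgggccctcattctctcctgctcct
The Des and Chrna1 windows held E-boxes of the form CAGCTG, which is a subset of CANNTG, the Ttn window held an E-box and a MEF2 motif, and the Myom1 window held a CArG box and 3 E-boxes, none of them CAGCTG. Over the members with an entry, CANNTG was in 23 of 26 promoters, against 72.2% of all 27018 promoters of that length. The form CAGCTG was in 13 of 26, against 16.1% of all promoters. A MEF2 motif was in 2 of 26, against 0.566%, and a CArG box in 3 of 26, against 1.57%. These are matches of letters and no binding was measured.

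Most of the 35 genes were barely transcribed in these cultures. Only 9 in batch 1 and 10 in batch 2 reached a group mean of 10 CPM. Per length, on the deposited FPKM scale (fragments-per-kilobase-per-million, with exon length divided out), Des led in DMSO-treated cells of batch 2 with 433 ± 47.4 FPKM, followed by Chrna1 with 151 ± 13.3 and Chrnb1 with 81.9 ± 1.45 FPKM (SD, n = 3). The next were Cav3 with 15.8 ± 2.78, Acta1 with 13.9 ± 8.02 and Chrnd with 8.30 ± 1.62 FPKM. Acta1 overlapped both Cav3 and Chrnd between libraries. Ttn and Neb, which reached a mean of 10 CPM in a group of batch 2, had only 0.406 ± 0.0914 and 0.191 ± 0.0128 FPKM in these DMSO cells. In batch 1 DMSO cells the same 3 genes led, Des with 291 ± 25.6 FPKM, Chrna1 with 138 ± 35.7 FPKM and Chrnb1 with 121 ± 7.15 FPKM, and there the values of Chrna1 and Chrnb1 overlapped. Summed over the 24 members in both tables, the level was 779 to 1056 CPM with adenosine and 1714 to 2295 CPM with DMSO in batch 1. In batch 2 it was 756 to 1053 CPM with adenosine, 874 to 1132 CPM with AMP and 2175 to 2580 CPM with DMSO. Without Des, Chrna1 and Chrnb1 these sums overlapped, at 160 to 183 CPM with adenosine and 129 to 263 CPM with DMSO in batch 1, and at 135 to 216 CPM with adenosine, 136 to 206 CPM with AMP and 121 to 203 CPM with DMSO in batch 2. In bulk RNA, fewer cells that express a gene and less of its RNA per cell cannot be told apart.

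**Figure D1:**
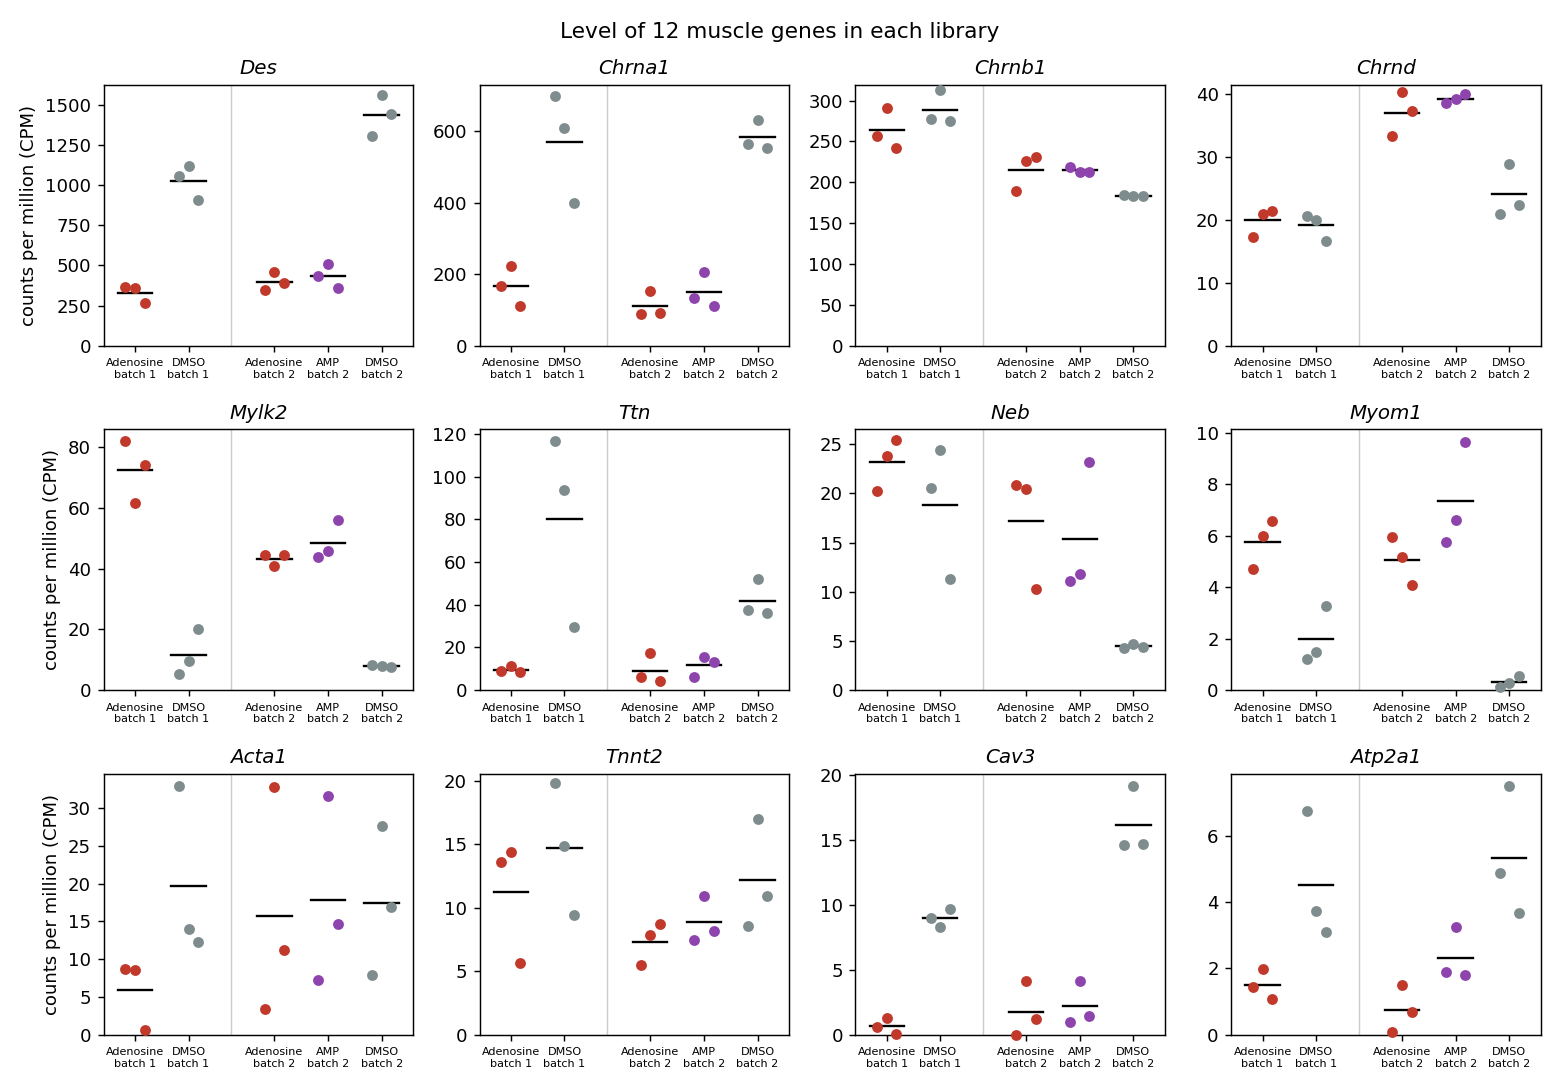
Level of 12 members (CPM, linear axes from 0) in each of the 15 libraries, with treated groups left of the DMSO group of their batch; points are libraries and black lines are group means. Des and Chrna1 of treated cells lie below all DMSO libraries, Mylk2 and Myom1 lie above them, and Acta1 spreads as widely within the batch 2 groups as between them.

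Des, Chrna1, Ttn, Cav3 and Atp2a1 fell and Mylk2 and Myom1 rose in each comparison of treated with DMSO cells. In batch 1, 2 of the 27 members that could be tested rose with 0.05 mM adenosine and 8 fell (edgeR quasi-likelihood test, Benjamini-Hochberg adjusted p under 0.05 over all genes tested), against 19.6% of all 13842 genes higher and 19.5% lower. These 10 were 37.0% of the members tested, close to the 39.2% called among all genes. The median log2 fold change of the 27 was -0.59, against 0.03 over all genes, and it was -1.52 without adenosine library 2. Without DMSO library 1 only 6 members were called. The groups did not overlap in CPM in 14 members, 5 higher and 9 lower with adenosine, against 53.6% of all genes, 35.7% higher and 17.9% lower.

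With 0.1 mM adenosine in batch 2, 4 of 24 members rose and 6 fell, against 34.9% of all 13063 genes higher and 34.5% lower. These were 41.7% of the members, against 69.4% called among all genes. The median was -0.19 on the log2 scale, against 0.01 over all genes, and -0.98 without adenosine library 2, but 0.06 without DMSO library 2 and 0.04 without adenosine library 1. With 0.25 mM AMP, compared with the same DMSO libraries, 4 of 24 rose and 6 fell as well, against 65.6% called among all genes, 33.7% higher and 31.8% lower. Their median was -0.29, against 0.01 over all genes, and -0.93 without AMP library 2, but 0.12 without DMSO library 2. Scaling by library totals, which lifts the median of all genes to 0.32 for adenosine in batch 2, to 0.28 for AMP and to 0.22 in batch 1, gave 7 members higher and 6 lower for adenosine in batch 2, 5 and 5 for AMP and 3 and 7 in batch 1, and it turned the median of the 24 members to 0.13 for adenosine in batch 2. Among members with a mean of at least 10 CPM over the libraries fitted, 6 of 9 were called in batch 1, against 45.0% of all genes at that level. With adenosine in batch 2 it was 6 of 8, against 71.9%, and with AMP 6 of 8, against 68.4%. The groups of 10 members did not overlap with adenosine in batch 2, 5 higher and 5 lower, against 74.6% of all genes, 50.3% higher and 24.3% lower. With AMP it was again 5 higher and 5 lower, against 70.7% of all genes, 48.4% higher and 22.3% lower.

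**Figure D2:**
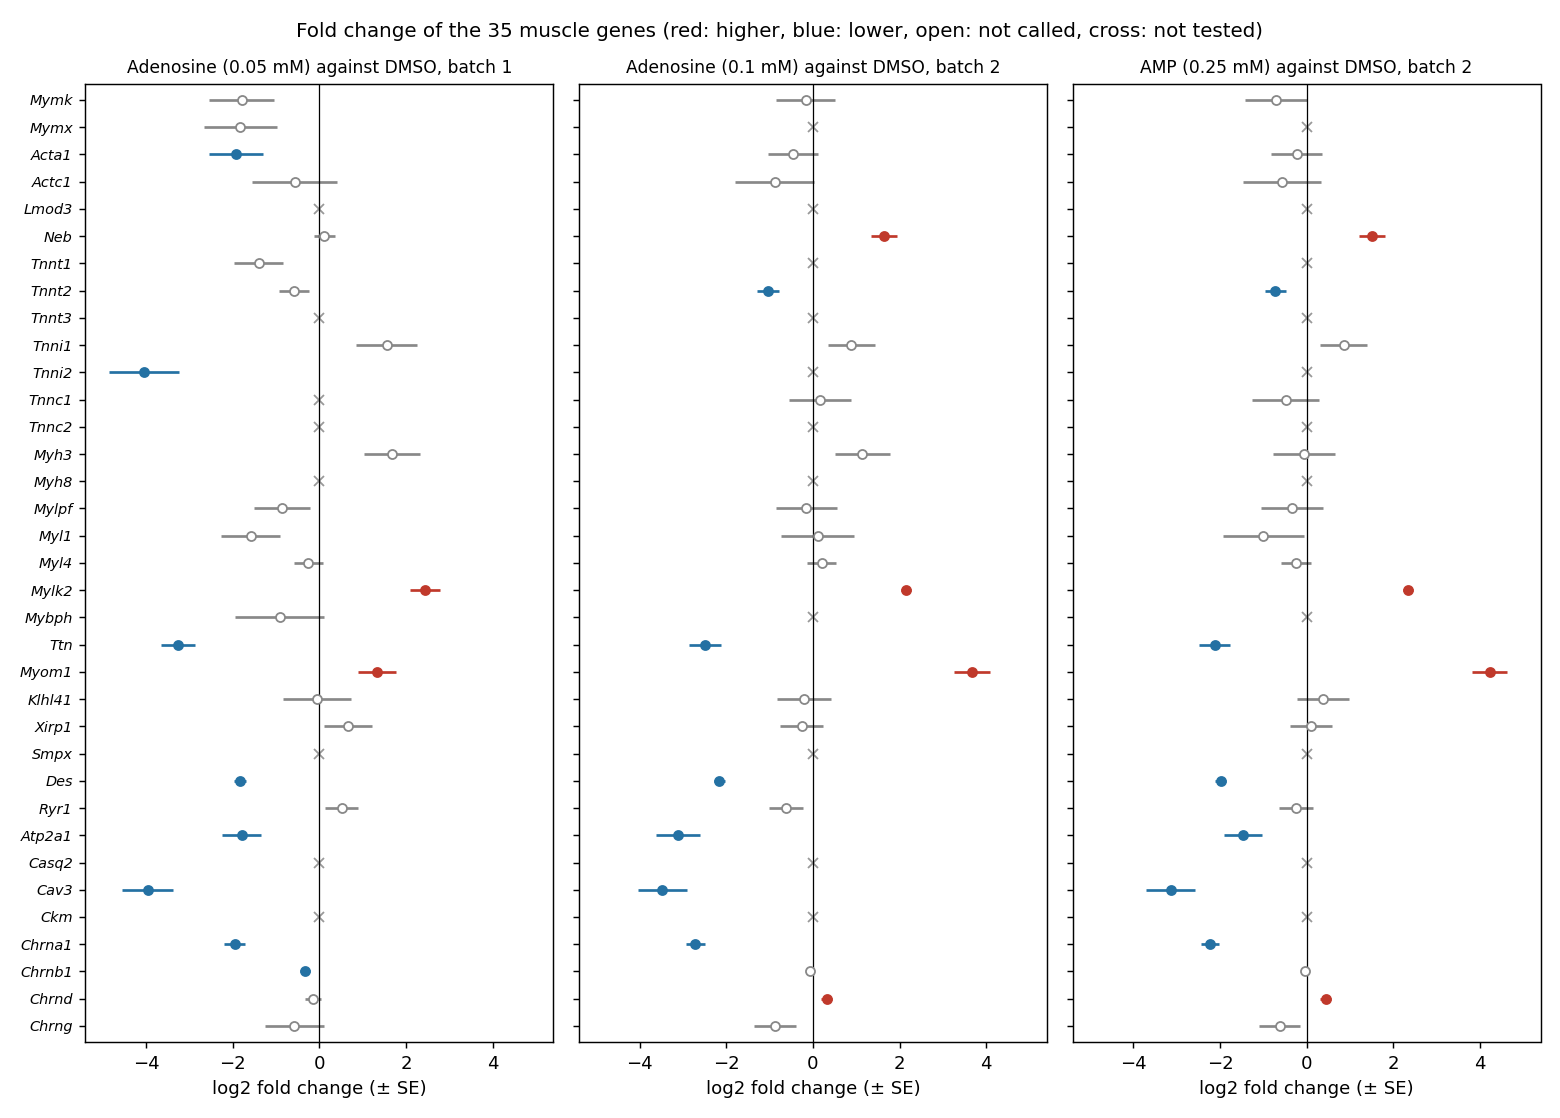
Log2 fold change against DMSO (horizontal axis, error bars 1 SE) of the 35 members, ordered by role, for adenosine in batch 1, adenosine in batch 2 and AMP in batch 2; both batch 2 panels share DMSO libraries. Filled points passed an adjusted p of 0.05, open points did not, and crosses at 0 mark members that were not tested. Called points below 0 include Des, Chrna1, Ttn, Cav3 and Atp2a1 in every panel and those above 0 include Mylk2 and Myom1, while fusion genes, myosins and light chains have open points with wide bars; Chrnb1, close to 0 in batch 2, turns from below to above 0 when scaled by library totals.

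The fusion genes had few reads and were not called in any comparison. Mymk, whose protein drives the merging of membranes, had 0.178 to 1.06 CPM with adenosine and 0.864 to 3.19 CPM with DMSO in batch 1, a log2 difference of -1.79 (95% interval -3.42 to -0.17) that did not pass (edgeR adjusted p = 0.0758). In batch 2 Mymk had 0.508 to 2.89 CPM with adenosine, 0.360 to 2.02 CPM with AMP and 0.422 to 1.83 CPM with DMSO, and all 3 groups overlapped. Mymx, which encodes the micropeptide that completes fusion pores, was measured in batch 1 alone. It had up to 0.497 CPM with adenosine, where library 3 had no count and so allows up to 0.178 CPM, and 0.798 to 1.20 CPM with DMSO (log2 difference -1.82, 95% interval -3.65 to 0.01, edgeR adjusted p = 0.106). Mymk was called in batch 1 without adenosine library 2, and Mymx by limma on log2(FPKM + 1).

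Among thin filament genes, Acta1 fell in batch 1 and varied widely between libraries. Acta1 (chromosome 8, 123891767 to 123894736), the skeletal alpha-actin gene, had 8.72, 8.58 and 0.592 CPM with adenosine, against 32.9, 13.96 and 12.3 CPM with DMSO in batch 1. All adenosine libraries were below all DMSO libraries, and the log2 fold change was -1.93 (SE 0.63, edgeR adjusted p = 0.0273). The call rests on DMSO library 1 (adjusted p = 0.122 without it) and was not made by DESeq2 (adjusted p = 0.132). In batch 2 Acta1 had 3.39, 32.8 and 11.2 CPM with adenosine and 7.29, 31.6 and 14.7 CPM with AMP, against 7.96, 27.6 and 16.9 CPM with DMSO. Library 2 was the highest of each group and the groups overlapped (log2 fold change -0.46 with adenosine, edgeR adjusted p = 0.496, and -0.23 with AMP, edgeR adjusted p = 0.744). Without adenosine library 2 the adenosine value was -1.56 (adjusted p = 0.0238). A fit with a replicate block, which matches libraries by number, gave -0.70 with adenosine (edgeR adjusted p = 0.00368). The labels do not say that equal numbers are pairs. Actc1, the cardiac alpha-actin gene that embryonic skeletal muscle also uses, stayed between 0 and 7.58 CPM in all 15 libraries. It was not called in any comparison with all libraries in and no replicate block. Actc1 was called lower without adenosine library 2 in batch 1 and without adenosine library 2 in batch 2. With the block it was called lower with adenosine and with AMP in batch 2. The coding sequences of Acta1 and Actc1 are nearly alike, so the split of reads between them is uncertain.

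Neb, the gene of the giant protein nebulin that lines the thin filament, rose in batch 2. It had 20.8, 20.5 and 10.2 CPM with adenosine and 11.1, 11.8 and 23.2 CPM with AMP, against 4.30, 4.70 and 4.38 CPM with DMSO. Every treated library was above every DMSO library. The log2 fold change was 1.65 with adenosine (SE 0.30, edgeR adjusted p = 0.000138) and 1.51 with AMP (SE 0.30, edgeR adjusted p = 0.000392). In batch 1 Neb had 20.2, 23.8 and 25.4 CPM with adenosine and 20.5, 24.5 and 11.3 CPM with DMSO. There the groups overlapped, with a log2 fold change of 0.11 (95% interval -0.42 to 0.64). Lmod3, a nucleator at thin filament ends, had 11 counts in batch 1 and was not tested.

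Of the troponins, which make contraction depend on calcium, Tnnt2 and Tnni2 passed a test. Tnnt2, the cardiac troponin T gene that is also on in early skeletal muscle, had 5.45, 7.82 and 8.72 CPM with adenosine and 7.47, 10.9 and 8.19 CPM with AMP, against 8.59, 17.0 and 10.9 CPM with DMSO in batch 2. It fell by 1.04 on the log2 scale with adenosine (SE 0.25, edgeR adjusted p = 0.00179) and by 0.72 with AMP (SE 0.25, edgeR adjusted p = 0.0192). In both cases the CPM values of the groups overlapped, and the AMP call was lost without DMSO library 2 (log2 fold change -0.39, adjusted p = 0.168), without AMP library 1 or 3 (adjusted p = 0.0707 each) and when scaled by library totals (adjusted p = 0.115). In batch 1 Tnnt2 had 13.6, 14.4 and 5.62 CPM with adenosine and 19.8, 14.9 and 9.44 CPM with DMSO and did not pass (log2 fold change -0.59, edgeR adjusted p = 0.202). Tnni2, the fast-fibre troponin I gene measured in batch 1 alone, had 0.272, 0.124 and 0 CPM with adenosine, against 2.45, 1.86 and 1.54 CPM with DMSO. It fell by 4.04 on the log2 scale (SE 0.80, edgeR adjusted p = 0.00169), from few reads, since the adenosine library with no count allows up to 0.178 CPM. Tnni1, the slow-fibre paralogue, had 2.31 to 3.47 CPM with adenosine and 0.0617 to 1.44 CPM with DMSO in batch 1, a log2 difference of 1.55 (95% interval 0.04 to 3.07, edgeR adjusted p = 0.0976). Tnnt1 gave -1.40 in batch 1 (edgeR adjusted p = 0.065), Tnnc1 did not pass in batch 2, and Tnnt3 and Tnnc2 were too low to test. Limma on log2(FPKM + 1) called Tnnt1 and Tnni1 in batch 1. Tnni1 was also called in batch 2 without DMSO library 2, with adenosine and with AMP, and with adenosine when scaled by library totals. Tnnc2 shares exon bases with Ube2c on the opposite strand and the libraries do not keep strand. How reads in the shared stretch were assigned was not tested, so its 2 counts may be too few or too many.

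A regulator of thick filaments rose. Mylk2 (chromosome 2, 152911352 to 152923068), which encodes the kinase of skeletal myosin light chains, had 82.1, 61.6 and 74.3 CPM with adenosine, against 5.43, 9.70 and 20.05 CPM with DMSO in batch 1. In batch 2 it had 44.5, 41.0 and 44.4 CPM with adenosine and 43.8, 46.0 and 55.9 CPM with AMP, against 8.17, 8.10 and 7.49 CPM with DMSO. Every treated library was above every DMSO library of its batch. Mylk2 rose 5.42-fold with adenosine in batch 1 (log2 fold change 2.44, SE 0.35, edgeR adjusted p = 0.000176). In batch 2 the rise was 4.42-fold with adenosine (log2 fold change 2.14, SE 0.12, edgeR adjusted p = 5.74e-10) and 5.08-fold with AMP (log2 fold change 2.34, SE 0.12, edgeR adjusted p = 3.83e-10).

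None of the myosin heavy and light chain genes tested passed. Myh3, the embryonic heavy chain gene, had 1.07 to 3.27 CPM with adenosine and 0.288 to 1.05 CPM with DMSO in batch 1 (log2 difference 1.67, 95% interval 0.27 to 3.07, edgeR adjusted p = 0.0568). In batch 2 Myh3 had 0.661 to 3.13 CPM with adenosine, 0.180 to 1.06 CPM with AMP and 0.282 to 0.784 CPM with DMSO. Myh3 was called with adenosine when scaled by library totals in either batch, without adenosine library 3 or DMSO library 3 in batch 1 and without adenosine library 1 in batch 2. Myh8, the perinatal heavy chain gene close to it in sequence, had 27 counts in batch 1 and was not tested. The light chain genes Myl1, Myl4 and Mylpf ranged from 0.237 to 6.33 CPM with adenosine and 0.864 to 7.31 CPM with DMSO in batch 1, and none of them was called in any comparison with all libraries in. Myl1 was called in batch 1 without adenosine library 2. Their log2 differences in batch 1 were -1.59 for Myl1 (95% interval -3.05 to -0.13, edgeR adjusted p = 0.0797), -0.87 for Mylpf and -0.25 for Myl4. Mybph, a thick filament binding protein gene, had 90 counts in batch 1 and did not pass. Its exons overlap those of Adora1 on the opposite strand, and reads in the shared stretch cannot be assigned to one strand.

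Of the genes for titin and its partner at the M-band, Ttn fell and Myom1 rose. Ttn (chromosome 2, 76703980 to 76982547), with 116825 exon bases the longest member, had 9.13, 11.1 and 8.29 CPM with adenosine, against 117, 94.0 and 29.4 CPM with DMSO in batch 1. In batch 2, Ttn had 6.03, 17.2 and 4.24 CPM with adenosine and 6.12, 15.6 and 13.0 CPM with AMP, against 37.5, 51.9 and 36.1 CPM with DMSO. All treated libraries were below all DMSO libraries of their batch. Per length these levels were low, with means of 0.0751 FPKM with adenosine and 0.724 FPKM with DMSO in batch 1. Ttn fell 9.58-fold in batch 1 (log2 fold change -3.26, SE 0.38, edgeR adjusted p = 4.06e-05). Batch 2 levels of Ttn were 5.63-fold lower with adenosine (log2 fold change -2.49, SE 0.37, edgeR adjusted p = 1.88e-05) and 4.36-fold lower with AMP (log2 fold change -2.12, SE 0.36, edgeR adjusted p = 9.41e-05).

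Myom1 (chromosome 17, 71019521 to 71126856), the gene of the myosin crosslinker myomesin at the M-band where titin ends, moved the other way at low levels. It had 4.70, 5.97 and 6.57 CPM with adenosine, against 1.20, 1.46 and 3.27 CPM with DMSO in batch 1. In batch 2, Myom1 had 5.95, 5.16 and 4.07 CPM with adenosine and 5.76, 6.60 and 9.65 CPM with AMP, against 0.141, 0.261 and 0.558 CPM with DMSO. All treated libraries were above all DMSO libraries of their batch, and the DMSO level was lower in batch 2 than in batch 1. Myom1 rose by a log2 fold change of 3.67 with adenosine in batch 2 (SE 0.42, edgeR adjusted p = 1.22e-06) and of 4.23 with AMP (SE 0.40, edgeR adjusted p = 2.61e-07). The rise in batch 1 was 1.34 (SE 0.44, edgeR adjusted p = 0.0278) and did not pass without adenosine library 2 or 3 or DMSO library 1 or 2 (adjusted p = 0.0772, 0.092, 0.0967 and 0.0854). Klhl41, a stabiliser of nebulin, and Xirp1, an actin-binding protein of repair sites, stayed at or under 3.36 CPM and did not pass in any comparison. Smpx, a small muscle protein gene, had 10 counts in batch 1.

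Of the genes for calcium handling and energy, Cav3 and Atp2a1 fell. Cav3 (chromosome 6, 112459501 to 112472871), the muscle caveolin gene, had 0.613, 1.305 and 0.0592 CPM with adenosine, against 9.04, 8.31 and 9.68 CPM with DMSO in batch 1. In batch 2 it had 0, 4.14 and 1.19 CPM with adenosine and 0.990, 4.14 and 1.45 CPM with AMP, against 14.6, 19.2 and 14.7 CPM with DMSO. The 0 in adenosine library 1 allows up to 0.248 CPM, and every treated library was below every DMSO library of its batch. Cav3 was 15.6-fold lower with adenosine in batch 1 (log2 fold change -3.96, SE 0.59, edgeR adjusted p = 0.000221). It was 11.1-fold lower with adenosine in batch 2 (log2 fold change -3.47, SE 0.57, edgeR adjusted p = 6.06e-05) and 8.83-fold lower with AMP (log2 fold change -3.14, SE 0.56, edgeR adjusted p = 0.000163).

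Atp2a1 encodes the fast-fibre calcium pump SERCA1 of the sarcoplasmic reticulum. It had 1.43, 1.99 and 1.07 CPM with adenosine, against 6.73, 3.72 and 3.08 CPM with DMSO in batch 1. In batch 2, Atp2a1 had 0.0826, 1.49 and 0.678 CPM with adenosine and 1.89, 3.26 and 1.79 CPM with AMP, against 4.86, 7.49 and 3.66 CPM with DMSO. Treated and DMSO libraries did not overlap. The log2 fold change was -1.79 in batch 1 (SE 0.45, edgeR adjusted p = 0.00734; adjusted p = 0.0579 without DMSO library 1). The batch 2 value was -3.11 with adenosine (SE 0.51, edgeR adjusted p = 5.72e-05) and -1.46 with AMP (SE 0.45, edgeR adjusted p = 0.00908; adjusted p = 0.0585 without DMSO library 2). Atp2a1 shares exon bases with Rabep2 on the opposite strand, which had 2747 counts in batch 1. How reads in the shared stretch were assigned was not tested, so Atp2a1 may hold reads of Rabep2 or lack some of its own. Ryr1, the calcium release channel gene, had 3.604 to 5.45 CPM with adenosine and 2.04 to 3.32 CPM with DMSO in batch 1 and did not pass there (edgeR adjusted p = 0.306) or in batch 2, where it was called with adenosine when DMSO library 2 was left out. Casq2, a calcium-binding protein of the same membranes, and Ckm, the muscle creatine kinase gene, had 43 and 7 counts in batch 1 and were not tested.

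The acetylcholine receptor genes split by subunit. Before innervation the receptor is a pentamer of alpha, beta, gamma and delta subunits from Chrna1, Chrnb1, Chrng and Chrnd. Chrna1 (chromosome 2, 73563215 to 73580338) had 168, 224 and 111 CPM with adenosine, against 699.8, 609.9 and 399 CPM with DMSO in batch 1. In batch 2, Chrna1 had 87.3, 153 and 92.0 CPM with adenosine and 132, 207 and 111 CPM with AMP, against 566, 633 and 554 CPM with DMSO. Every treated library was below every DMSO library of its batch. Chrna1 fell 3.88-fold in batch 1 (log2 fold change -1.96, SE 0.24, edgeR adjusted p = 4.97e-05). Batch 2 levels of Chrna1 were 6.56-fold lower with adenosine (log2 fold change -2.71, SE 0.21, edgeR adjusted p = 2.29e-08) and 4.68-fold lower with AMP (log2 fold change -2.22, SE 0.21, edgeR adjusted p = 2.25e-07).

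Chrnb1 (chromosome 11, 69784036 to 69795943), the beta subunit gene, gave small and unstable differences. It had 257, 291 and 243 CPM with adenosine and 278, 313 and 276 CPM with DMSO in batch 1, values that overlapped. Its log2 fold change there was -0.33 (SE 0.11, edgeR adjusted p = 0.0383), which did not pass when scaled by library totals (-0.13, adjusted p = 0.397) or without adenosine library 3 or DMSO library 1, 2 or 3 (adjusted p = 0.116, 0.0589, 0.144 and 0.0539). In batch 2 Chrnb1 had 189.5, 226 and 231 CPM with adenosine and 219, 212 and 213 CPM with AMP, against 184, 183 and 183 CPM with DMSO. All treated libraries were above all DMSO libraries in CPM, while after TMM scaling (a trimmed mean of gene ratios) the log2 fold change was -0.08 with adenosine (95% interval -0.23 to 0.08) and -0.04 with AMP (95% interval -0.19 to 0.12), and both turned to 0.23 when scaled by library totals (adjusted p = 0.0181 and 0.0224), below the median of all genes under that scaling for each agent. Chrnd rose in batch 2. It had 33.4, 40.3 and 37.4 CPM with adenosine and 38.6, 39.2 and 40.0 CPM with AMP, against 20.9, 28.9 and 22.4 CPM with DMSO. All treated libraries were above all DMSO libraries in CPM, as for 50.3% of all genes with adenosine and 48.4% with AMP. After TMM scaling the rise of Chrnd was smaller than in CPM, 1.24-fold with adenosine and 1.36-fold with AMP. The log2 fold change was 0.44 with AMP (SE 0.13, edgeR adjusted p = 0.00599) and 0.31 with adenosine (SE 0.13, edgeR adjusted p = 0.0364), the second of which did not pass without adenosine library 2 or 3 or DMSO library 1 or 3 (adjusted p = 0.111, 0.0685, 0.18 and 0.122). In batch 1 Chrnd had 17.3, 21.0 and 21.4 CPM with adenosine and 20.7, 19.9 and 16.7 CPM with DMSO and did not pass (edgeR adjusted p = 0.593). Chrng, the fetal subunit gene, ranged from 0.237 to 5.84 CPM over all libraries and was not called in any comparison in the main fit. It was called lower with adenosine in batch 2 without DMSO library 1 and in a fit with a replicate block.

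Des (chromosome 1, 75360329 to 75368579), the desmin gene and the member with the most reads, fell in each comparison with DMSO. It had 367, 362 and 265 CPM with adenosine, against 1056, 1122 and 909.9 CPM with DMSO in batch 1. In batch 2 it had 345, 458 and 391 CPM with adenosine and 437, 507 and 361 CPM with AMP, against 1304, 1561 and 1442 CPM with DMSO. The groups were far apart relative to the spread within them. Des was 3.55-fold lower in batch 1 (log2 fold change -1.83, SE 0.14, edgeR adjusted p = 2.01e-06). Batch 2 levels of Des were 4.48-fold lower with adenosine (log2 fold change -2.16, SE 0.13, edgeR adjusted p = 1.3e-09) and 3.96-fold lower with AMP (log2 fold change -1.98, SE 0.13, edgeR adjusted p = 4.94e-09).

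For batch 1 the authors' deposited table held its own adjusted p-values for 32 of the 35 members, of which 9 were under 0.05, with 2 genes higher and 7 lower with adenosine. In the authors' deposited table Acta1 had an adjusted p of 0.157.

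Within a library, the ratio of counts of a pair of genes does not depend on the library total, and 3 of 6 pairs computed, chosen after their values were seen, show how unevenly members of a structure changed. The count ratio of Chrna1 to Chrnb1 was 0.654, 0.769 and 0.459 with adenosine, against 2.52, 1.95 and 1.45 with DMSO in batch 1. In batch 2 it was 0.461, 0.677 and 0.399 with adenosine and 0.604, 0.974 and 0.520 with AMP, against 3.08, 3.46 and 3.03 with DMSO. In DMSO cells the alpha subunit thus had more reads than the beta subunit and in treated cells fewer. The ratio of Chrna1 to Chrnd averaged 8.53 ± 2.92 with adenosine and 29.4 ± 5.08 with DMSO in batch 1 (SD, n = 3 each). In batch 2 it averaged 2.96 ± 0.73 with adenosine and 3.82 ± 1.3 with AMP, against 24.6 ± 2.58 with DMSO (SD, n = 3 each). The ratio of Ttn to Neb averaged 0.415 ± 0.0776 with adenosine and 4.04 ± 1.55 with DMSO in batch 1, and in batch 2 0.514 ± 0.289 with adenosine and 0.811 ± 0.442 with AMP, against 9.33 ± 1.497 with DMSO. A ratio shows unequal change and not which gene changed, and between genes it also depends on their lengths.

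**Figure D3:**
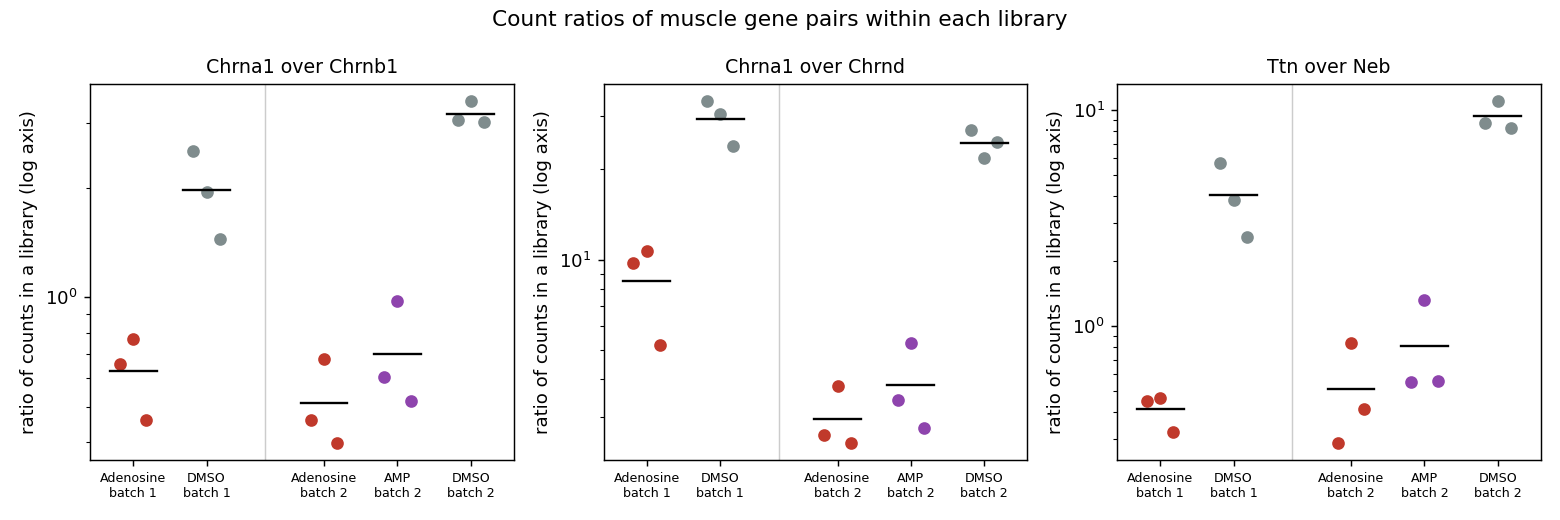
Ratio of the counts of 2 members within each library (log axis) for Chrna1 over Chrnb1, Chrna1 over Chrnd and Ttn over Neb; points are libraries and black lines group means, with treated groups left of the DMSO group of their batch. In each panel all treated libraries lie below all DMSO libraries of their batch.

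The 3 libraries of a group differed in a way that many low members shared. In batch 2, library 2 had the highest CPM of its group in 17 of 24 members with adenosine, 18 with AMP and 18 with DMSO, and library 1 had the lowest in 16, 17 and 17. Myog, the differentiation regulator, ran the same way, with 1.32, 13.1 and 3.90 CPM with adenosine and 2.34, 13.6 and 6.74 CPM with AMP, against 2.68, 16.0 and 8.29 CPM with DMSO. In batch 1 the DMSO library 1 was highest in 23 of 34 members with a count and library 3 lowest in 24, and adenosine library 3 was lowest in 23 of 35. There Myog had 1.70, 4.47 and 0.118 CPM with adenosine, against 21.8, 14.02 and 7.46 CPM with DMSO. In batch 2, Acta1, Actc1 and Mylpf varied more among the libraries of a group than between group means. The 14 members not called in batch 2 had 95% intervals up to 3.84 log2 units wide with adenosine and 3.97 with AMP. The widest were those of Actc1 with adenosine (-2.81 to 1.03) and of Myl1 with AMP (-2.98 to 0.99). For such members the intervals include changes of several fold.

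**Figure D4:**
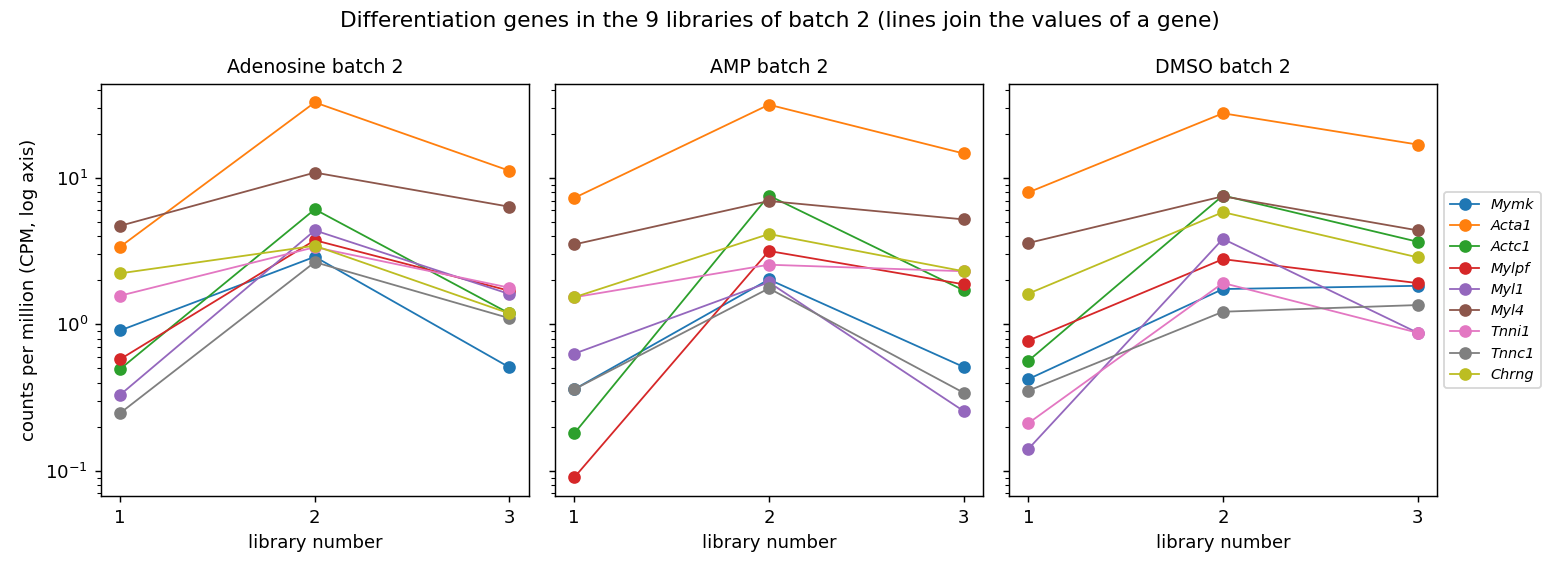
CPM (log axis) of 9 selected members in libraries 1, 2 and 3 of the adenosine, AMP and DMSO groups of batch 2. Points are libraries and lines only join the values of a gene, since libraries have no order. Some members with another order, such as Xirp1 with adenosine and Ryr1 with DMSO, are not drawn. Library 2 is highest for most genes in each panel, as with Acta1 at 32.8, 31.6 and 27.6 CPM in the adenosine, AMP and DMSO groups.

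Other genes of the muscle programme, from lists drawn up with earlier results of these data known, are given by count, to be read against the shares called among all genes, 39.2% in batch 1, 69.4% with adenosine in batch 2 and 65.6% with AMP. Of the myogenic regulators, 0 rose and 5 fell of 9 tested with adenosine in batch 1, 1 rose and 3 fell of 8 with adenosine in batch 2, and 2 rose and 2 fell of 8 with AMP. Myog fell in batch 1 (log2 fold change -2.98, edgeR adjusted p = 0.0043) and did not pass in batch 2 with adenosine (-0.86, edgeR adjusted p = 0.259) or AMP (-0.50, edgeR adjusted p = 0.516). Of further sarcomere proteins, 2 rose and 7 fell of 15 in batch 1, 1 rose and 8 fell of 12 with adenosine in batch 2, and 1 rose and 9 fell of 12 with AMP. Cavin4, a partner of Cav3 in caveolae, was 8.03-fold lower in batch 1, 6.95-fold lower with adenosine in batch 2 and 6.26-fold lower with AMP.

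Genes of the neuromuscular junction, which cluster the receptor, gave 0 higher and 5 lower of 6 in batch 1 and 1 higher and 5 lower of 6 with each agent in batch 2. Over all genes 19.5% were called lower in batch 1, 34.5% with adenosine in batch 2 and 31.8% with AMP. Dok7, the activator of the receptor-clustering kinase Musk, was 3.87-fold lower in batch 1, 7.12-fold lower with adenosine in batch 2 and 6.80-fold lower with AMP. Musk itself was 1.54-fold, 2.06-fold and 1.598-fold lower in the same order. Of the excitation-contraction coupling genes, 0 rose and 7 fell of 11 in batch 1, and 1 rose and 7 fell of 10 with each agent in batch 2. Cacng1, a subunit of the muscle calcium channel, was 17.3-fold lower in batch 1, 6.54-fold lower with adenosine in batch 2 and 5.26-fold lower with AMP. Jph2, which tethers the sarcoplasmic reticulum to the cell membrane, was 10.8-fold lower, 4.44-fold lower and 1.72-fold lower in the same order.

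Adhesion and fusion genes gave 1 higher and 5 lower of 11 in batch 1, 1 higher and 7 lower of 9 with adenosine in batch 2 and 1 higher and 6 lower of 9 with AMP, beside the same shares of all genes (39.2%, 69.4% and 65.6% called in these comparisons). Cdh2, the N-cadherin gene, was 6.46-fold, 6.15-fold and 3.64-fold lower in these comparisons, while the tetraspanin gene Cd9 was 2.20-fold, 2.07-fold and 2.10-fold higher. Muscle energy metabolism was mixed, with 3 higher and 3 lower of 7 in batch 1, 4 higher and 2 lower of 6 with adenosine in batch 2 and 2 higher and 2 lower of 6 with AMP. Of the dystrophin complex and membrane repair genes, 1 rose and 4 fell of 6 in batch 1, and 2 rose and 4 fell of 7 with each agent in batch 2. Dag1, the dystroglycan gene, was 2.58-fold, 2.36-fold and 2.49-fold lower, while Sspn of the same list was 1.87-fold, 2.55-fold and 2.43-fold higher.

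Genes of cycling cells fell in each comparison with DMSO. The 6 of that list (Mki67, Top2a, Ccna2, Ccnb1, Cdk1 and Mcm5) summed to 72.6 to 77.6 CPM with adenosine and 352 to 902 CPM with DMSO in batch 1. In batch 2 they summed to 179 to 286 CPM with adenosine, 168 to 322 CPM with AMP and 1280 to 1701 CPM with DMSO. All 6 were called lower in each comparison with DMSO. The 7 satellite cell markers summed to 2066 to 2770 CPM with adenosine and 5539 to 5905 CPM with DMSO in batch 1, and to 1585 to 2035 CPM with adenosine, 2085 to 2573 CPM with AMP and 3629 to 3897 CPM with DMSO in batch 2. Myod1 alone had a mean of 1951 CPM over the batch 1 libraries and 1044 CPM over those of batch 2. Of the 7, 0 rose and 6 fell in batch 1, 1 rose and 6 fell with adenosine in batch 2. With AMP 1 rose and 5 fell. Among all genes 39.2%, 69.4% and 65.6% were called in these comparisons. Of the leukocyte markers in batch 1, 5 of the 7 were in the table and summed to 11.6 to 17.0 CPM with adenosine and 1.20 to 2.41 CPM with DMSO. Cd68 alone reached a mean of 1 CPM there, and Adgre1 and Csf1r had no count in the DMSO libraries. In batch 2, 2 of the 7 were in the table and summed to 12.1 to 15.7 CPM with adenosine and 12.3 to 16.3 CPM with AMP, against 1.65 to 3.31 CPM with DMSO. The 6 endothelial markers of batch 1 summed to 21.2 to 27.2 CPM with adenosine and 9.64 to 11.9 CPM with DMSO. Of these, 4 were tested and only 1, Tek, was called, higher with adenosine. In batch 2, 3 endothelial markers were tested, and with each agent 1 was called higher and 1 lower. The 7 fibro-adipogenic progenitor markers summed to 316 to 395 CPM with adenosine and 344 to 448 CPM with DMSO in batch 1. Only 4 of them, Dcn, Gsn, Cd34 and Dpt, reached a mean of 1 CPM in either group. The 4 present in batch 2 summed to 288 to 309 CPM with adenosine and 394 to 434 CPM with AMP. With DMSO they summed to 329 to 402 CPM. Most of these sums came from Cd34, with a mean of 287 CPM over the batch 2 libraries, and Gsn, with 64.7 CPM. The part of these shifts in the members' changes was not tested.

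The agents were compared directly in batch 2, at doses that differ, so agent and dose cannot be told apart. None of the 24 members passed between AMP and adenosine by edgeR in the fit without a replicate term, against 6.51% called among all 13063 genes, 4.52% higher and 2.00% lower with AMP. Atp2a1 and Chrna1 had an unadjusted p under 0.05, and DESeq2 called 1 member, Atp2a1. Atp2a1 was the 1 member whose AMP libraries all lay above the adenosine libraries, against 21.8% of all genes without overlap, 9.97% higher and 11.8% lower, and had a log2 difference of 1.65 (95% interval 0.48 to 2.82, edgeR adjusted p = 0.0937). Chrna1 gave 0.49 (95% interval 0.05 to 0.93, edgeR adjusted p = 0.191), with overlapping groups. Without adenosine library 2, Chrna1 (0.77, adjusted p = 0.0268), Ttn (1.18, adjusted p = 0.0413) and Atp2a1 passed, and without AMP library 3 Chrna1 alone did (0.69, adjusted p = 0.0415). The difference was 0.18 for Des (95% interval -0.09 to 0.45), 0.04 for Chrnb1 (95% interval -0.11 to 0.19) and 0.20 for Mylk2 (95% interval -0.02 to 0.42).

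Between batches, the adenosine effect differed past the threshold in 2 of 24 members, Myom1 and Neb, against 12% of the 13042 genes in the joint fit of both batches, 6.30% with a higher effect in batch 2 and 5.69% with a lower one. Dose and batch changed together and cannot be told apart. Both effects were higher with 0.1 mM adenosine in batch 2, by 2.33 for Myom1 (SE 0.64, edgeR adjusted p = 0.0227) and by 1.54 for Neb (SE 0.42, edgeR adjusted p = 0.0229) on the log2 scale. For both genes the adenosine groups of the batches overlapped in CPM while every DMSO library of batch 2 was below every DMSO library of batch 1. Des, Ttn, Cav3 and Mylk2, which moved with adenosine in both batches, gave differences of -0.33, 0.76, 0.48 and -0.29 between batches with 95% intervals that include 0, the widest from -1.56 to 2.51 for Cav3. Without DMSO library 3 of batch 1 the Mylk2 difference was -0.96 (edgeR adjusted p = 0.0236). The Neb difference did not pass without DMSO library 2 of batch 1, adenosine library 1 or 2 of batch 2 or DMSO library 1 of batch 2 (adjusted p = 0.0615, 0.0663, 0.0548 and 0.0523). The Myom1 difference did not pass without DMSO library 3 of batch 1 or adenosine library 1 or DMSO library 1 or 2 of batch 2 (adjusted p = 0.0579, 0.0527, 0.076 and 0.0624).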

How the data were processed

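RNA-seq libraries of mouse satellite cells were analysed from the deposited tables of counts per gene. Per the submitters' processing notes the tools included Trim Galore, STAR, featureCounts from Subread and DESeq2, with the build mm10. Batch 1 read pairs were counted per gene over the exons of an Ensembl GRCm38 annotation, with no strand option, per the file headers; the counting options of batch 2 are not recorded in its table. The deposited FPKM values were normalized by the authors for length and depth. For batch 1 the authors also deposited a table with a log2 fold change (DMSO over adenosine) and adjusted p-values per gene. In the batch 2 counts, 43 lines with no gene name held 0.0589% of counts and were left out.

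Counts were fitted with edgeR 4.0.16 in R 4.3.3 (TMM factors, filterByExpr by group, quasi-likelihood F test). Batch 1 was fitted on its 6 libraries and batch 2 on its 9. The difference between batches was fitted on all 15 over genes in both tables. P-values were adjusted by the Benjamini-Hochberg method over all genes tested, with a threshold of 0.05. SEs were taken from the F statistic, and intervals are 95%. CPM (counts-per-million) are relative to the library total, and a count of 0 was read as allowing 3 counts, for counting error only. Alternatives were DESeq2 1.42.0 and its size factors, library totals, no filter, a mean of at least 10 CPM, limma 3.58.1 on log2(FPKM + 1), a replicate block and leaving out each library. The code was tested on simulated data.

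Members reaching a mean of 10 CPM in a group, or called in a comparison, are given per library, others by range. Of other lists, the called genes with the largest changes and 5 CPM or more on average could be named, and Myog is given in every comparison with DMSO. The members and lists were chosen with earlier results of these data known. Libraries of a group differed beyond sampling noise (chi-square per degree of freedom 3.54 to 34.4 over genes with 20 counts or more).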

Additional observations from a re-analysis of the deposited data

Results flagged for a closer look

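The adenosine effect differed between the batches, by the test of the difference itself, for Myom1 and Neb. For Myom1 the log2 effect of adenosine was 3.67 in batch 2 and 1.34 in batch 1, a difference of 2.33 (SE 0.64, edgeR adjusted p = 0.0227). For Neb it was 1.65 in batch 2 and 0.11 in batch 1, a difference of 1.54 (SE 0.42, edgeR adjusted p = 0.0229). Each was above all DMSO libraries in all 3 adenosine libraries of batch 2. Dose and batch changed together, so they cannot be told apart. Both calls were lost when some single libraries were left out, with adjusted p up to 0.076 for Myom1 and 0.0663 for Neb.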

How the results depend on the processing

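Of 32 single-gene calls, 23 passed under every alternative in which the gene was tested, 9 were lost under at least one and none reversed. Lower members such as Cav3 were not tested at a mean of 10 CPM or more, so that alternative could not lose their calls. Restricted to means of 10 CPM or more, fewer members were tested and 6 were called in each comparison with DMSO and 1 between batches. Chrnb1, not called in batch 2, reversed to 0.233 with adenosine and 0.227 with AMP when scaled by library totals, where the median of all genes was 0.323 and 0.279. Between AMP and adenosine DESeq2 called 1 member; the cause was not tested. Leaving out 1 library at a time gave 6 to 12 called members for adenosine in batch 1, 9 to 12 in batch 2, 9 to 10 for AMP, 0 to 3 between agents and 0 to 2 between batches. The medians then ran from -1.52 to -0.32 for adenosine in batch 1, -0.98 to 0.058 in batch 2 and -0.93 to 0.12 for AMP. Deviations of same-numbered libraries correlated across genes from -0.09 to 0.14 in batch 1 and -0.07 to 0.35 in batch 2. Not every pair exceeded 0.1 and not every library correlated best with its own number, so the numbers are not treated as pairs. Over the members alone, same-numbered libraries of batch 2 had a median correlation of 0.55 (-0.32 to 0.87), a hint from the data and not from the design. The median of -0.28 for different numbers adds little to it, since deviations from a group mean sum to 0 within the group. A fit with the replicate block called 9 members for adenosine in batch 1, 13 in batch 2, 11 for AMP, 2 between agents and 3 between batches. The block lost Chrnb1 in batch 1 (-0.33, edgeR adjusted p = 0.0606). It added Acta1 (-0.70, edgeR adjusted p = 0.00368), Actc1 and Chrng with adenosine in batch 2, Actc1 with AMP, Chrna1 (0.48, edgeR adjusted p = 0.00968) and Atp2a1 between agents and Chrna1 between batches (-0.78, edgeR adjusted p = 0.0119). Low counts limit the fusion, myosin and most troponin genes.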
